A study of Mus musculus with 26 samples.

Results

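The transcripts of SR and hnRNP splicing factors were examined in macrophages sorted from mouse mammary tumours. The members are the rows of the count tables whose symbol is Srsf followed by a number or starts with Hnrnp, 29 of 19549 rows: 11 Srsf genes and 18 Hnrnp genes. A further 2 rows, which join Hnrnpab with Phykpl and Hnrnph3 with Rufy2, were left out because their counts cannot be assigned to a single gene. PyMT cells, a mouse mammary cancer line driven by the polyoma middle T antigen, had been placed in a mammary gland of FVB females aged 5-7 weeks, and 13 tumours were weighed and dissociated. Macrophages were sorted from each tumour as CD11b+ F4/80+ Ly6G- cells, with cycloheximide present to hold ribosomes on their mRNAs. Part of the cells of each tumour gave a total mRNA library, and the rest gave a polysome library, made from the sucrose gradient fractions in which an mRNA carried 3 or more ribosomes. SmartSeq2, a protocol that amplifies full-length cDNA from small amounts of RNA, was used for all 26 libraries. The labels name no drug or genetic change in the host, and every comparison is between RNA sources, between tumour sizes or between the 2 experimental batches named in the labels.

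The tumours were grouped by their labelled weight, with a limit of 1000 mg set for this work in a gap that held no tumour. The 8 small tumours weighed 467 to 841.8 mg and the 5 large tumours 1504 to 2245 mg. Batch 1 held 7 tumours, small replicates 1 to 5 and large replicates 1 and 2, and batch 2 held 6, small replicates 6 to 8 and large replicates 3 to 5. Total counts ran from 18018519 to 55609113 in the total mRNA libraries and from 7034173 to 28257436 in the polysome libraries. The 11 macrophage markers together took 1.55% to 6.20% of the counts of a total mRNA library and 0.510% to 4.66% of a polysome library. Both lowest values came from small replicate 7, whose libraries also held the highest mammary epithelial and fibroblast marker shares of each RNA source. These were 0.496% and 0.560% in total mRNA, and 0.141% and 0.620% in polysomes. The next highest fibroblast shares were those of small replicate 1, with 0.323% in total mRNA and 0.102% in polysomes. The part of non-macrophage RNA in the results below was not tested, and the numbers of calls without small replicate 7 are given where they differ. In bulk libraries such as these, fewer cells that carry a transcript and less of it per cell cannot be told apart.

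SR proteins bind exons through an RNA recognition motif and recruit the spliceosome through a domain rich in arginine and serine, which kinases of the SRPK and CLK families phosphorylate. The hnRNP proteins coat nascent transcripts, often oppose the use of weak splice sites, and also act in mRNA export, stability and translation. Many members of both families regulate their own transcripts through splicing of poison exons or retained introns, which sends the mRNA to nonsense-mediated decay or keeps it in the nucleus. In macrophages these proteins are known for shaping inflammatory transcripts. Gene-level counts do not separate coding isoforms from such non-coding isoforms.

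The repeat of arginine and serine codons that sets the SR family apart can be read in the coding sequence. Shown here, from GENCODE vM21 on GRCm38, is the 60-base coding stretch with the most adjacent arginine and serine codon pairs in 4 SR members and 2 hnRNP members that recur in the results. Capitals mark the codons of such pairs.
Srsf1: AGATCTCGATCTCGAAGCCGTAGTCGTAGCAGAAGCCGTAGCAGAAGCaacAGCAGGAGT
Srsf9: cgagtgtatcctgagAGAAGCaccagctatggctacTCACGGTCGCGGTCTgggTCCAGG
Srsf5: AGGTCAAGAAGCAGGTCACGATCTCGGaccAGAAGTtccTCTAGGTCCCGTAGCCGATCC
Srsf7: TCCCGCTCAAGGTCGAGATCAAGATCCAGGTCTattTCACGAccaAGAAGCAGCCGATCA
Hnrnpl: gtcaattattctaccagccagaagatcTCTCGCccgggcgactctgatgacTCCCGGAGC
Hnrnpf: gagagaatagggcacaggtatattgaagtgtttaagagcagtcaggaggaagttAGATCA
These stretches lie at chr11:88049469-88049528 (Srsf1, + strand), chr5:115332594-115332653 (Srsf9, + strand), chr12:80949603-80949777 (Srsf5, + strand, over 2 exons), chr17:80202198-80202743 (Srsf7, − strand, over 2 exons), chr7:28813978-28814037 (Hnrnpl, + strand) and chr6:117924276-117924335 (Hnrnpf, + strand). They hold 17 pairs in Srsf1, 6 in Srsf9, 15 in Srsf5, 14 in Srsf7, 3 in Hnrnpl and 1 in Hnrnpf. Over whole coding sequences the 11 SR members held 9 to 106 pairs (median 41) and the 18 hnRNP members 2 to 13 (median 4), beside a median of 3 over 18187 coding genes of the tables. Srsf9 had the fewest pairs of the SR members and Srsf4 the most.

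The members also differed in the bases around the start codon, which a scanning ribosome reads. The windows below are shown for the 6 members with the largest polysome differences and for Srsf1 and Hnrnpll, the close relatives of Srsf9 and Hnrnpl. Capitals mark the start codon with the 3 bases before it and the base after it.
Hnrnpl: ttctgcgccGCCATGTcgcggag
Hnrnpll: accgccgccGCCATGTcctcctc
Hnrnpul2: gcgacggcgGCGATGGaggtgaa
Srsf9: cggccggtgCGGATGTcgtcggg
Srsf1: gccgccgccGCCATGTcgggagg
Hnrnpf: tgtcaagtgTCCATGAtgctggg
Hnrnpk: taattcaagAAAATGGagaccga
Srsf5: tagccgggcATCATGAgtggctg
The windows lie at chr7:28810899-28810921 (Hnrnpl, + strand), chr17:80061982-80062004 (Hnrnpll, − strand), chr19:8820270-8820292 (Hnrnpul2, + strand), chr5:115327297-115327319 (Srsf9, + strand), chr11:88047827-88047849 (Srsf1, + strand), chr6:117923745-117923767 (Hnrnpf, + strand), chr13:58400380-58400402 (Hnrnpk, − strand) and chr12:80946583-80946605 (Srsf5, + strand). The letters ANNATGG or GNNATGG, read on the coding strand at the annotated start, were present in 10 of 18 hnRNP members (55.6%) and 0 of 11 SR members, beside 41.9% of 17545 coding genes. They were present in 4 of the 9 members that were higher in polysomes and in 5 of the 17 that were lower. A match is a description of these letters only.

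The first comparison asked which members were richer or poorer in the polysome library than in the total mRNA library of the same tumour. A total of 9 members rose and 17 fell in polysomes, of 28 tested, at a Benjamini-Hochberg adjusted p below 0.05 in the quasi-likelihood test of edgeR, with the tumour as a block. Over all 12109 genes tested, 22.6% were higher and 34% lower, so that a large share of calls in both directions is the background of this comparison. The median log2 fold was -0.99 over the 28 members and -0.34 over all genes. Hnrnpl, Hnrnpul2 and Srsf9 had the largest increases, and Hnrnpf, Hnrnpk and Srsf5 the largest decreases. The untested member was Srsf12, a tissue-restricted SR protein, which was at 0 in every polysome library and reached at most 0.0481 CPM (a count scaled to the size of its library) in total mRNA. The counts of 9 and 17 were the same under each of the 3 scalings and under DESeq2 and limma voom. Without small replicate 7 there were 10 higher and 17 lower, beside 2840 higher and 3752 lower of 11894 genes.

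**Figure D1:**
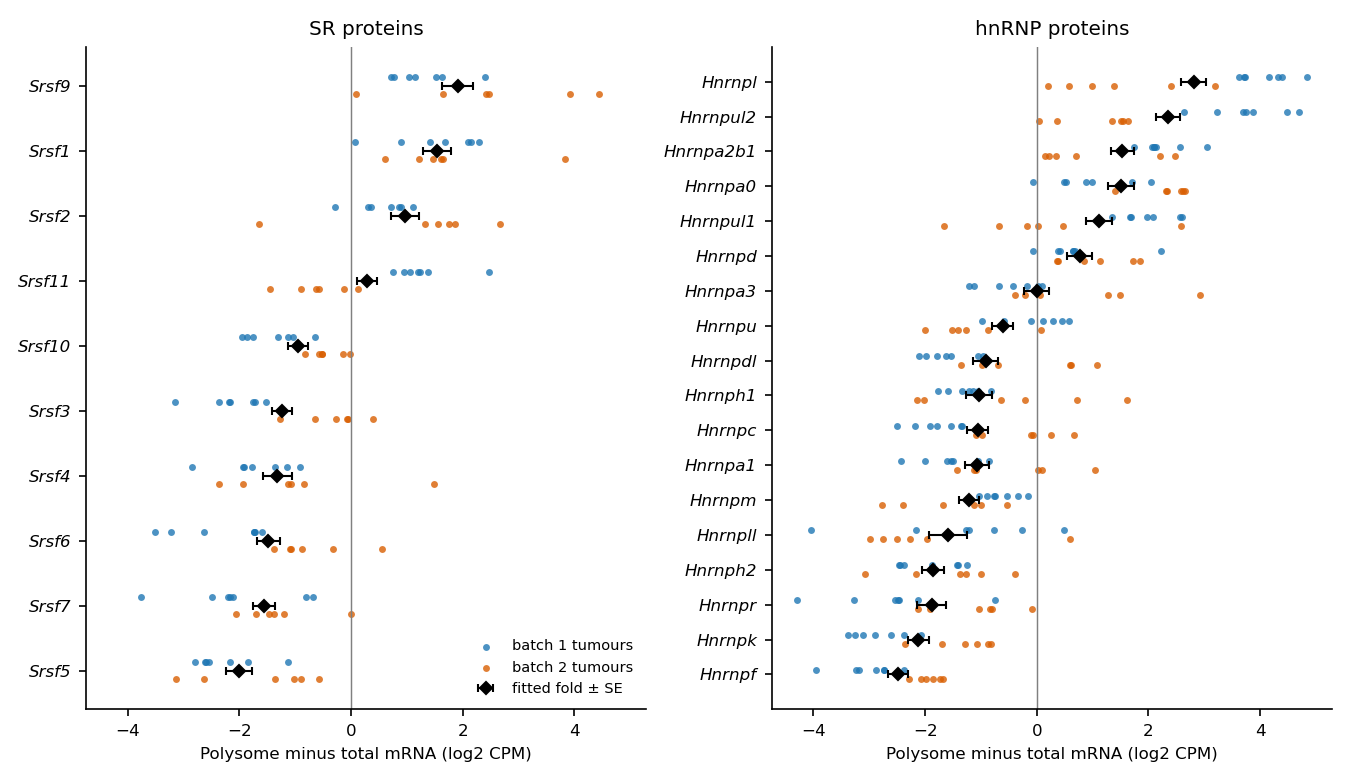
Difference between polysome and total mRNA in log2 CPM on the horizontal axis for each tested member, with one point per tumour (blue, batch 1; orange, batch 2) and the fitted log2 fold with its SE as a black diamond. Hnrnpl lay at 2.81 and Hnrnpf at -2.49. The points of the 2 batches did not overlap for Hnrnpc, Hnrnpf, Hnrnpl, Hnrnpul2, Srsf3, Srsf6 and Srsf11, and overlapped for the other members. How often they did not overlap for other genes was not counted.

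These calls changed when a joint trend of GC content and transcript length was removed. Across the 28 members the polysome fold had a Spearman correlation of 0.40 with the GC content of the transcript. Across 11089 genes with an annotated transcript it was 0.33. With transcript length the correlation was 0.058 over the members and 0.20 over the 11089 genes. The genes share the same libraries, and these are descriptions. The members that were lower in polysomes had a median GC content of 42.9% (40.0% to 56.8%), those that were higher 50.0% (40.6% to 56.2%), and all coding genes in the data 49.3%. When a trend of GC content and length was removed within each library, an alternative chosen after seeing the data, 11 members were higher and 7 lower of 28, beside 3061 higher and 2248 lower of the 11089 genes. The median fold of the members was then 0.25, beside 0.0059 over all genes. All 9 members that had been higher stayed higher, and Srsf11 and Hnrnpa3 joined them. Of the 17 that had been lower, 7 stayed lower (Hnrnpf, Hnrnpr, Srsf4, Hnrnpm, Hnrnph2, Hnrnpk and Srsf5) and 7 had folds above 0 that were not called. The other 3 (Srsf6, Hnrnpll and Hnrnpu) had folds below 0 that were not called. GC content and length were removed together, so their parts were not separated. Base composition, length and polysome association of these transcripts cannot be told apart in counts per gene.

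**Figure D2:**
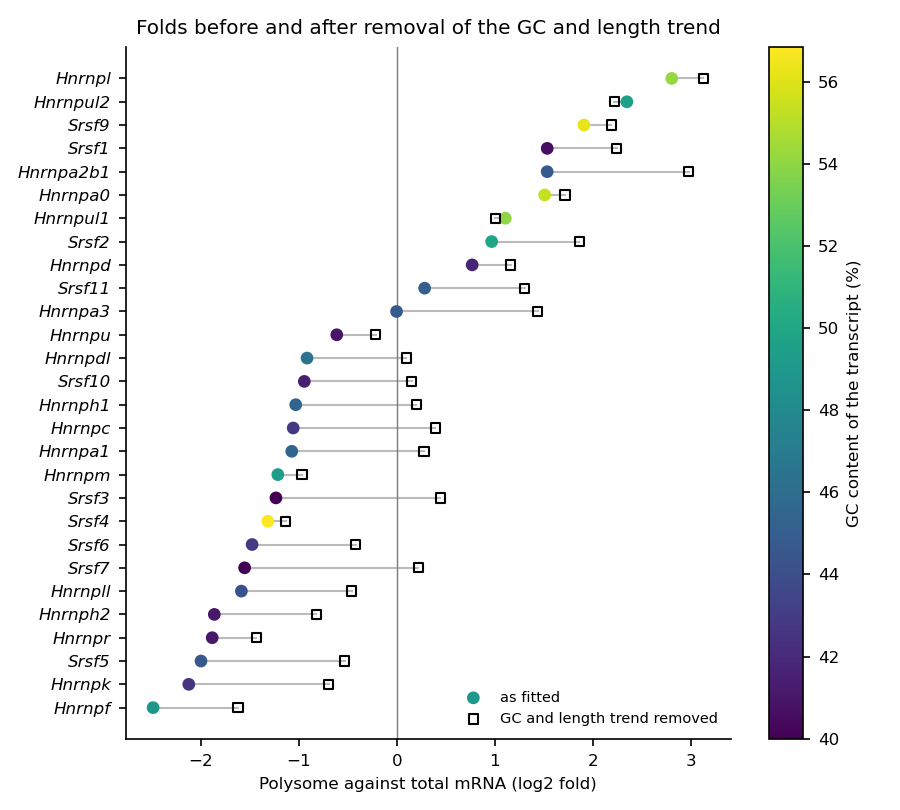
Log2 fold of polysome against total mRNA for each tested member as fitted (filled circles, coloured by the GC content of the transcript in percent) and after removal of the GC and length trend (open squares). Hnrnpl stayed near 3 in both, Hnrnpf moved from -2.49 to -1.62, and Srsf7 moved from -1.55 to 0.22.

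A total of 11 members kept their call and direction under all 23 alternatives, among them each batch alone, the removal of the GC and length trend and the omission of each tumour in turn. The 5 that were higher were Hnrnpl, Hnrnpul2, Srsf9, Hnrnpa2b1 and Srsf1, and the 6 that were lower were Hnrnpf, Hnrnpk, Srsf5, Hnrnpr, Hnrnph2 and Hnrnpm. The alternatives share libraries and are not independent of one another. How many of all genes met the same requirement was not counted, so the count of 11 has no background share. Calls over all genes stood at 49.2% in batch 1 alone, 29.8% in batch 2 alone and 47.9% after the trend was removed.

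**Figure D3:**
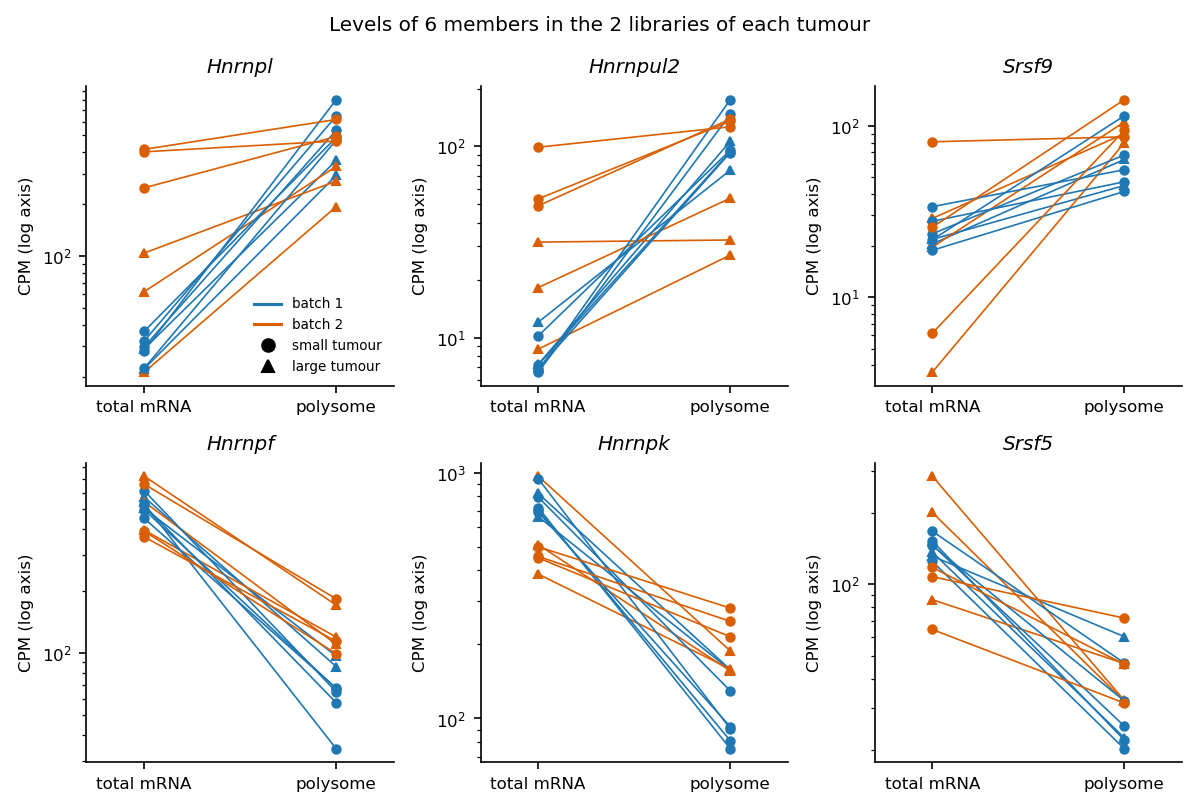
CPM (log axis) of 6 members in the total mRNA and the polysome library of each tumour, joined by a line; blue is batch 1 and orange batch 2, circles are small tumours and triangles large ones. Every line rose for Hnrnpl, Hnrnpul2 and Srsf9 and fell for Hnrnpf, Hnrnpk and Srsf5, and the total mRNA levels of Hnrnpl and Hnrnpul2 differed between the batches.

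Among the SR proteins, 3 of the 10 in the test rose in polysomes (Srsf9, Srsf1 and Srsf2), 6 fell (Srsf5, Srsf7, Srsf6, Srsf4, Srsf3 and Srsf10), and Srsf11 was not called. Srsf1 and Srsf9 are close relatives that share the arrangement of a canonical and a divergent RNA recognition motif. Srsf9 (chr5:115327177-115333080, + strand, GRCm38) ran from 18.8 to 33.7 CPM in total mRNA of batch 1 (median 21.7) and from 41.4 to 115 CPM in its polysome libraries (median 55.5). In batch 2 total mRNA it ran from 3.63 to 80.8 CPM (median 22.6), and in polysomes from 79.7 to 143 CPM (median 92.2). The total mRNA and polysome levels did not overlap in batch 1, and in batch 2 only the 80.8 CPM of small replicate 8 reached the polysome range. Its log2 fold was 1.91 ± 0.28 (SE, n = 13 tumours; edgeR adjusted p = 3.63e-06), with the polysome library higher in 13 of 13 tumours. Srsf1, which selects exons rich in purines and also shuttles to the cytoplasm, had a fold of 1.54 ± 0.25 and was likewise higher in 13 of 13 tumours. Srsf2, which remains in the nucleus, was at 0.97 ± 0.25 and higher in 11 of 13 tumours. Its call ended in batch 1 alone (0.57, adjusted p = 0.063 in edgeR) and without the tumour block (0.67, adjusted p = 0.0641 in edgeR).

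The SR members that were lower in polysomes included the 3 relatives Srsf4, Srsf5 and Srsf6, which carry long arginine-serine domains. Srsf5 (chr12:80945504-80950507, + strand) ran from 125 to 167 CPM in batch 1 total mRNA (median 146) and from 20.3 to 60.1 CPM in polysomes (median 25.2). Levels in batch 2 ran from 64.4 to 285 CPM in total mRNA (median 113) and from 31.6 to 71.9 CPM in polysomes (median 39.2). The polysome library was lower in 13 of 13 tumours, although the ranges of the RNA sources overlapped in batch 2, where small replicate 7 had the lowest total mRNA level. The fold was -2.0 ± 0.23 (edgeR adjusted p = 9.04e-08), and -0.53 (adjusted p = 0.031 in edgeR) once the GC and length trend was removed. Srsf6 had a fold of -1.48 ± 0.21 and Srsf4 one of -1.32 ± 0.26, each lower in 12 of 13 tumours. Neither was called in batch 2 alone (-0.72 and -1.02), and Srsf6 was not called after removal of the trend (-0.42).

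Srsf3 and Srsf7, a related pair that couples splicing to mRNA export, were also lower. Srsf7 had a fold of -1.55 ± 0.20 and Srsf3 one of -1.23 ± 0.19, each lower in 12 of 13 tumours. Srsf3 was not called in batch 2 alone (-0.33). Srsf3 and Srsf7 have the lowest GC contents of the members (40.0%), and both folds turned positive without being called when the trend was removed (0.22 for Srsf7 and 0.44 for Srsf3). Srsf10, which acts as a repressor when dephosphorylated, was at -0.94 ± 0.18, lower in 13 of 13 tumours, and also turned positive (0.15). It was not called in batch 2 alone (-0.44). Srsf11, an atypical member whose protein interacts with the splice site factor U2AF, was at 0.28 ± 0.18 (edgeR adjusted p = 0.19), with opposite signs in the 2 batches as described below.

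Of the hnRNP members, 6 of 18 were higher in polysomes (Hnrnpl, Hnrnpul2, Hnrnpa2b1, Hnrnpa0, Hnrnpul1 and Hnrnpd), 11 were lower, and Hnrnpa3 was not called. In the A/B group, whose proteins bind exonic silencers and AU-rich or UAG-containing RNA, the members went in different directions. Hnrnpa2b1 ran from 341 to 517 CPM in batch 1 total mRNA (median 450) and from 1432 to 4258 CPM in polysomes (median 1771). The range in batch 2 went from 250 to 1402 CPM in total mRNA (median 494) and from 649 to 1542 CPM in polysomes (median 1061). The 1402 CPM of small replicate 8 was the only total mRNA level of batch 2 inside its polysome range. The fold was 1.53 ± 0.21 (edgeR adjusted p = 8.62e-07), higher in 13 of 13 tumours.

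Hnrnpa0, an intronless gene whose protein binds AU-rich cytokine mRNAs, was at 1.51 ± 0.23 and higher in 12 of 13 tumours. It was not called in batch 1 alone (0.75, adjusted p = 0.101 in edgeR). Hnrnpa1, the best known splicing repressor of the group, was at -1.07 ± 0.21 and lower in 10 of 13 tumours, without a call in batch 2 alone (-0.43) and at 0.28 after removal of the GC and length trend. Hnrnpa3 was at -0.0029 ± 0.22 (edgeR adjusted p = 0.993), and at 1.44 (adjusted p = 5.99e-06 in edgeR) after that removal. Hnrnpa1 and several other members have near-identical processed copies elsewhere in the genome, and how shared reads were counted is not given in the sources used here, so that their levels are uncertain to that extent.

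Hnrnpd, also known as AUF1, which promotes the decay of AU-rich mRNAs, was at 0.77 ± 0.22 and higher in 12 of 13 tumours. Hnrnpdl, its close relative, was at -0.92 ± 0.23 and lower in 10 of 13. The call of Hnrnpd ended in batch 1 alone (0.56) and that of Hnrnpdl in batch 2 alone (-0.14). Hnrnpc, which covers uridine tracts and blocks cryptic exons, was at -1.06 ± 0.19 and lower in 11 of 13 tumours, with -0.25 and no call in batch 2 alone.

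Hnrnpf and the related Hnrnph1 and Hnrnph2, which bind runs of guanine, were all lower in polysomes. Hnrnpf (chr6:117900324-117925622, + strand) ran from 450 to 613 CPM in batch 1 total mRNA (median 520) and from 34.2 to 96.5 CPM in polysomes (median 67.1). Batch 2 values ran from 366 to 721 CPM in total mRNA (median 468) and from 98.9 to 183 CPM in polysomes (median 116). The 2 RNA sources did not overlap in either batch. The fold was -2.49 ± 0.18 (edgeR adjusted p = 1.32e-10), lower in 13 of 13 tumours. Hnrnph2 was at -1.86 ± 0.19, lower in 13 of 13, and Hnrnph1 at -1.03 ± 0.23, lower in 11 of 13. Hnrnph1 was not called in batch 2 alone (-0.47) and was at 0.20 after removal of the GC and length trend.

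Hnrnpk, a KH-domain protein that binds cytidine-rich RNA and also regulates translation, showed the second largest decrease. Hnrnpk (chr13:58391142-58403343, − strand) ran from 663 to 945 CPM in batch 1 total mRNA (median 721) and from 75.3 to 158 CPM in polysomes (median 92.6). The batch 2 levels ran from 387 to 968 CPM in total mRNA (median 478) and from 156 to 281 CPM in polysomes (median 202). The lowest total mRNA level was above the highest polysome level in both batches. The fold was -2.12 ± 0.19 (edgeR adjusted p = 1.91e-09), and -0.70 (adjusted p = 0.000799 in edgeR) after removal of the GC and length trend.

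Hnrnpl, which binds CA-rich RNA, showed the largest increase. Hnrnpl (chr7:28808541-28822266, + strand) ran from 22.2 to 36.6 CPM in batch 1 total mRNA (median 29.0) and from 293 to 804 CPM in polysomes (median 486). Levels in batch 2 ran from 21.2 to 414 CPM in total mRNA (median 176) and from 193 to 617 CPM in polysomes (median 396). The RNA sources were far apart in batch 1 and overlapped in batch 2, while the polysome library was the higher of the pair in 13 of 13 tumours. The fold was 2.81 ± 0.23 (edgeR adjusted p = 5.57e-10), at 4.01 in batch 1 alone and 1.44 in batch 2 alone. Hnrnpll, its relative known for regulating Ptprc splicing in lymphocytes, was at -1.59 ± 0.34 and lower in 11 of 13 tumours. It was not called in batch 1 alone (-1.07, adjusted p = 0.092 in edgeR) or after removal of the trend (-0.46).

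The U group, named for the scaffold attachment factor Hnrnpu, was also divided. Hnrnpul2 (chr19:8820010-8834143, + strand) ran from 6.60 to 12.1 CPM in batch 1 total mRNA (median 7.21) and from 75.2 to 176 CPM in polysomes (median 95.7). The range in batch 2 went from 8.71 to 99.1 CPM in total mRNA (median 40.3) and from 27.1 to 139 CPM in polysomes (median 90.2). The sources were apart in batch 1 and overlapped in batch 2. The fold was 2.35 ± 0.22 (edgeR adjusted p = 3.54e-09), higher in 13 of 13 tumours, at 3.64 in batch 1 alone and 1.07 in batch 2 alone. Hnrnpul1 was at 1.11 ± 0.23 and higher in 10 of 13 tumours, with 0.061 and no call in batch 2 alone. Hnrnpu itself was at -0.61 ± 0.20, lower in 8 of 13 tumours, and its call ended without large replicate 5 (-0.44, adjusted p = 0.0685 in edgeR) and in batch 1 alone (-0.020). It also ended after removal of the GC and length trend (-0.22, adjusted p = 0.428 in edgeR). Hnrnpm, which binds GU-rich RNA, was at -1.22 ± 0.18, and Hnrnpr, a relative of Syncrip, at -1.89 ± 0.26, both lower in 13 of 13 tumours.

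Every member had its annotated transcripts examined for non-coding forms. A transcript subject to nonsense-mediated decay was annotated for 18 of the 29 members (62.1%), with 9 of 11 SR genes (81.8%) and 9 of 18 hnRNP genes, beside 21.2% of the 18187 coding genes. A retained-intron transcript was annotated for 21 members (72.4%) beside 43.9% of coding genes. These shares were not matched for the number of annotated transcripts per gene, which was 34 for Hnrnpk and 1 for Hnrnpa0. The coding genes also include genes that were not tested here. Among members higher in polysomes 6 of 9 had a decay transcript, and among those lower 11 of 17. The 3′ UTR lengths of the groups overlapped, from 360 to 5429 bases (median 1082) in the higher and from 263 to 19419 bases (median 1147) in the lower.

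To set genes side by side, CPM were divided by the length of all annotated exons of a gene, combined over its transcripts. For Hnrnpa2b1 this length was 6584 bases beside 1662 in its representative transcript, and for Hnrnpf 3047 beside 2401. The order of the members thus depends on the length used, and levels per representative transcript were not computed. Per kilobase of combined exon, Hnrnpf was the most abundant member in total mRNA. It had 171 ± 34.7 CPM per kilobase (SD, n = 13), followed by Hnrnpk with 102 ± 29.5, Hnrnpa2b1 with 76.7 ± 43.2 and Hnrnpa1 with 48.5 ± 13.6. These neighbours overlapped in their ranges. In polysomes Hnrnpa2b1 was first with 256 ± 146 CPM per kilobase, followed by Hnrnpl with 76.9 ± 28.6 and Srsf9 with 48.1 ± 18.3. In total mRNA Srsf9 was 12th in batch 1 and 15th in batch 2. Hnrnpl was 21st in total mRNA of batch 1, with 4.80 ± 0.86 CPM per kilobase (SD, n = 7), and 7th in that of batch 2, with 35.0 ± 28.9 (SD, n = 6). In sum the 29 members took 0.238% to 0.546% of total mRNA counts (median 0.429%) and 0.271% to 0.586% of polysome counts (median 0.327%). The SR members took 0.0406% to 0.0595% of the polysome counts in batch 1 and 0.0773% to 0.109% in batch 2, ranges that did not overlap, and 0.0862% to 0.131% and 0.0585% to 0.135% of total mRNA counts. These shares are of raw counts. The TMM factors of the polysome libraries, not applied to them, ran from 0.746 to 1.09 in batch 1 and from 1.01 to 1.40 in batch 2. How often other genes had ranges that did not overlap was not counted.

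The polysome fold itself differed between the batches for 15 of 28 members. It was higher in batch 2 for 10 (10.5% of all 12109 genes) and lower for 5 (6.95%), and the median difference was 0.71 over the members and 0.26 over all genes. Under the scaling of DESeq2's size factors in edgeR the median over all genes was 0.15. There 7 members were higher and 6 lower, beside 1104 higher and 1013 lower of 12109 genes. After removal of the GC and length trend 1 was higher (Hnrnpa0, 1.83) and 7 were lower, beside 409 higher and 952 lower of 11089 genes. Without small replicate 6 there were 9 calls in all (beside 11.5% of 12053 genes), and without small replicate 7 there were 12 (beside 12.2% of 11894 genes). Hnrnpl, Hnrnpul2, Hnrnpul1 and Srsf11 kept their call under all 21 alternatives, and all were lower in batch 2. The difference is by construction that between the batch differences in polysome and in total mRNA, which share these libraries, and both are given side by side.

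Hnrnpl had the largest difference, -2.79 ± 0.43 (edgeR adjusted p = 0.000114), followed by Hnrnpul2 with -2.61 ± 0.42 (edgeR adjusted p = 0.000155) and Hnrnpul1 with -2.16 ± 0.46 (edgeR adjusted p = 0.00201). For Hnrnpl the total mRNA level of batch 2 was 401 CPM in small replicate 6, 414 in small replicate 7, 248 in small replicate 8, 104 in large replicate 3, 21.2 in large replicate 4 and 62.1 in large replicate 5. All but large replicate 4 were above the highest total mRNA level of batch 1 (36.6 CPM). The batch difference of Hnrnpl was 2.74 ± 0.44 in total mRNA (edgeR adjusted p = 0.00683) and -0.23 ± 0.26 in polysomes (edgeR adjusted p = 0.555). For Hnrnpul2 it was 2.37 ± 0.42 in total mRNA (edgeR adjusted p = 0.00752) and -0.42 ± 0.30 in polysomes. Here too large replicate 4, at 8.71 CPM, lay within the batch 1 range, and the other 5 tumours, at 18.3 to 99.1 CPM, lay above it.

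Hnrnpul1 ran from 11.8 to 37.0 CPM in batch 1 total mRNA (median 18.3) and from 35.1 to 117 CPM in polysomes (median 79.7). In batch 2 it was at 73.9, 62.4 and 101 CPM in the total mRNA of small replicates 6, 7 and 8, and at 56.7, 11.6 and 80.0 CPM in that of large replicates 3, 4 and 5. Its polysome levels in batch 2 ran from 19.7 to 89.5 CPM (median 74.0). The polysome level was above the total mRNA level in 7 of 7 tumours of batch 1 and in 3 of 6 of batch 2, and it was below in small replicates 6, 7 and 8. Its batch difference was 1.68 ± 0.40 in total mRNA (edgeR adjusted p = 0.0164) and -0.51 ± 0.36 in polysomes.

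Srsf11 was the only member called in both RNA sources, with 1.02 ± 0.19 in total mRNA (edgeR adjusted p = 0.00777) and -0.90 ± 0.30 in polysomes (edgeR adjusted p = 0.0391). It was higher in polysomes in 7 of 7 tumours of batch 1 and in 1 of 6 of batch 2. Its fold was 1.22 in batch 1 alone (adjusted p = 0.000233 in edgeR) and -0.60 in batch 2 alone (adjusted p = 0.134 in edgeR). Its total mRNA levels ran from 63.5 to 81.2 CPM in batch 1 and from 110 to 186 CPM in batch 2. These ranges did not overlap, and how often this held for other genes was not counted.

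In total mRNA as a whole, 7 members were higher in batch 2 (Hnrnpl, Hnrnpul2, Hnrnpll, Hnrnpu, Hnrnpul1, Srsf11 and Hnrnpm) and 0 were lower, beside 11.1% and 5.66% of 11671 genes. At an unadjusted p below 0.05, 2 members were lower in the same edgeR fit, and DESeq2 and limma voom called 1 each. Leaving out each tumour gave 6 to 10 calls, with 7 higher and 3 lower (Hnrnpc, Hnrnpk and Hnrnph2) without large replicate 4, beside 1666 higher and 1121 lower of 11873 genes. In polysome mRNA 9 were higher in batch 2 (Hnrnpa0, Hnrnpa3, Srsf3, Srsf2, Hnrnpdl, Hnrnpa1, Srsf6, Hnrnpf and Hnrnpk) and 2 lower (Hnrnpa2b1 and Srsf11), beside 11.1% and 10.3% of 10933 genes. After removal of the GC and length trend 1 was higher and 2 lower in polysomes, beside 629 higher and 1124 lower of 9964 genes. Without small replicate 6 there were 6 calls in polysomes, beside 19.7% of 10785 genes. Without small replicate 7 there were 9 calls in polysomes (beside 19.1% of 10726 genes) and 6 in total mRNA (beside 8.6% of 11501 genes). Hnrnpa0, for example, ran from 9.20 to 37.8 CPM in the polysomes of batch 1 and from 27.5 to 73.4 CPM in those of batch 2, with total mRNA ranges of 6.90 to 10.7 and 5.43 to 12.3 CPM. The fold differences with a higher value in batch 2 ran from 1.04 for Hnrnpf to 1.77 for Srsf3. Of these, the differences of Hnrnpa1, Hnrnpf and Hnrnpr lost their call in 10, 10 and 14 of the 21 alternatives. The difference of Hnrnpu, which was lower in batch 2, lost its call in 10 of the 21.

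**Figure D4:**
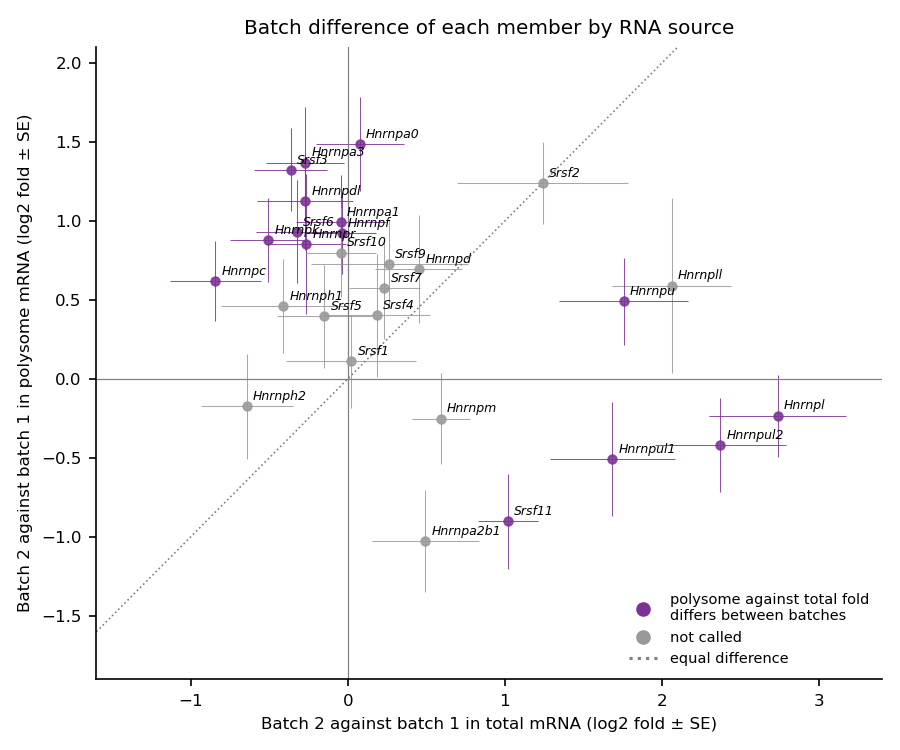
Log2 fold of batch 2 against batch 1, with SE, in total mRNA (horizontal axis) and in polysome mRNA (vertical axis) for each tested member; purple marks a polysome fold that differed between the batches, and the dotted line marks equal differences. Hnrnpl, Hnrnpul2, Hnrnpul1 and Srsf11 lay to the right of the dotted line, and Srsf3, Hnrnpa0 and Hnrnpa3 above it.

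Within each batch the directions were mostly shared. Of 28 members, 26 had the same sign of the polysome fold in both batches alone, and Hnrnpa3 and Srsf11 had opposite signs. In batch 1 alone 22 were called (7 higher and 15 lower), beside 2682 higher and 3514 lower of 12603 genes (49.2%). In batch 2 alone 17 were called (8 higher and 9 lower), beside 1690 higher and 1916 lower of 12081 genes (29.8%), and 12 members were called in both batches with the same sign. The shares of all genes with the same sign in both batches, or called in both, were not counted. The counts of 26 and 12 therefore stand without a background. The batches also differed in depth: the median total count of the polysome libraries was 9407120 in batch 1 and 17564900 in batch 2. The part of depth in the batch differences was not tested.

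The second question of the design was whether the members followed tumour size. With batch as a term, 0 of 28 members differed between large and small tumours in total mRNA, 0 in polysome mRNA and 0 in the polysome fold (edgeR, adjusted p below 0.05), beside 0% of all genes tested in each of the 3 fits. At an unadjusted p below 0.05 there were 1, 8 and 5 members, beside 538 of 11671, 1362 of 10933 and 1385 of 12109 genes. DESeq2 called 0 members in total mRNA, 5 in polysome mRNA, where it called 92 genes higher and 60 lower of 9145 (1.66%), and 0 in the fold, and limma voom 0 in each. The 5 members called by DESeq2 were Srsf7, which was higher in large tumours, and Hnrnpa3, Hnrnpl, Hnrnpul2 and Hnrnpa0, which were lower.

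**Figure D5:**
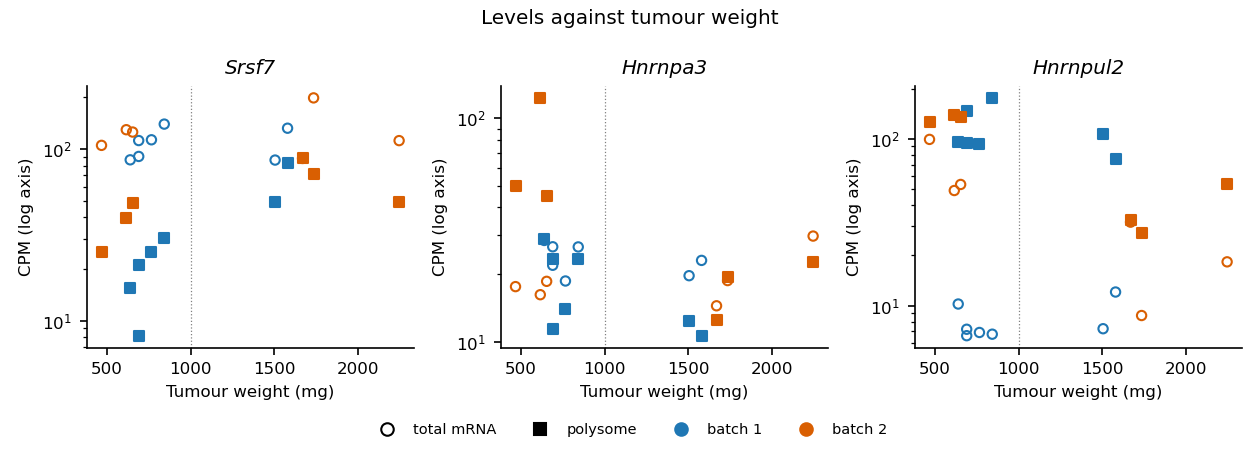
CPM (log axis) against tumour weight in mg for Srsf7, Hnrnpa3 and Hnrnpul2, with open circles for total mRNA and filled squares for polysome mRNA, blue for batch 1 and orange for batch 2; the dotted line marks 1000 mg. Polysome levels of Srsf7 ran from 48.7 to 88.0 CPM in large tumours and from 8.17 to 48.3 CPM in small ones. The members shown were chosen by their p for size in polysomes, and how often other genes separated by size was not counted.

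Srsf7 had the lowest p for size in polysomes. In batch 1 its polysome level was 15.4, 8.17, 21.0, 30.2 and 25.2 CPM in small replicates 1 to 5 and 49.0 and 82.6 CPM in large replicates 1 and 2. In batch 2 it was 39.7, 48.3 and 25.2 CPM in small replicates 6 to 8 and 88.0, 71.3 and 48.7 CPM in large replicates 3 to 5. Every large tumour was above every small tumour, by a margin of less than 1 CPM at the closest pair. Srsf7 was chosen by its p in these same values, and how often other genes separated in this way was not counted. The log2 difference was 1.33 ± 0.33 (edgeR adjusted p = 0.134), while total mRNA levels of large tumours, 86.1 to 198 CPM, overlapped those of small ones, 86.4 to 139 CPM.

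Hnrnpa3 ran the other way, with 28.7, 23.5, 11.4, 23.5 and 14.0 CPM in the polysomes of small replicates 1 to 5 and 12.4 and 10.6 CPM in those of large replicates 1 and 2. In batch 2 it was at 124, 45.0 and 49.8 CPM in small replicates 6 to 8 and at 12.4, 19.4 and 22.8 CPM in large replicates 3 to 5. The groups overlapped in batch 1 and not in batch 2, and how often other genes did so was not counted. The log2 difference was -1.39 ± 0.38 (edgeR adjusted p = 0.18). Hnrnpul2 had a difference of -1.09 ± 0.31 (edgeR adjusted p = 0.202), with 127 to 139 CPM in the small and 27.1 to 53.7 CPM in the large tumours of batch 2. In batch 1 its 7 polysome levels overlapped between sizes.

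In total mRNA the lowest p for size belonged to Hnrnpl, with -1.34 ± 0.45 (edgeR adjusted p = 0.865). The levels given above show 248 to 414 CPM in the small and 21.2 to 104 CPM in the large tumours of batch 2, and 22.2 to 36.6 CPM over both sizes in batch 1. Hnrnpu (-0.88 ± 0.43) and Srsf2 (-1.08 ± 0.58) came next, neither with an unadjusted p below 0.05. The Srsf2 value rested on small replicate 8, at 409 CPM, and was -0.093 without it. For the polysome fold the lowest p belonged to Srsf7 (1.25 ± 0.40), Hnrnpa3 (-1.37 ± 0.47) and Hnrnph2 (-1.07 ± 0.38), with edgeR adjusted p of 0.307, 0.324 and 0.328. A p that misses the threshold does not show that sizes had equal levels.

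Other genes of the splicing pathway also included calls in both directions, as did all 12109 genes tested (22.6% higher and 34% lower). Of 18 tested SR-related proteins 4 were higher in polysomes and 8 lower (median -0.51). They included Scaf1 (2.36 ± 0.22) and Tra2b (2.23 ± 0.18), a sequence-specific splicing activator, on the higher side and Pnn (-2.95 ± 0.39), a protein of the exon junction complex periphery, and Srek1 (-2.01 ± 0.28) on the lower. Of 11 kinases and carriers of SR proteins 4 were higher and 4 lower (median 0.14). The kinases Clk4 (-1.79 ± 0.26) and Clk1 (-1.55 ± 0.23) were lower, and the nuclear importer Tnpo1 (1.14 ± 0.26) and the export adaptor Alyref (1.55 ± 0.33) were higher.

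Among 12 hnRNP proteins with other symbols 3 were higher and 6 lower (median -0.68). The poly(C)-binding protein gene Pcbp1 (2.78 ± 0.26) and the polypyrimidine tract binding protein gene Ptbp3 (2.06 ± 0.20) were higher, and Rbmx, which encodes hnRNP G (-3.07 ± 0.40), and Ewsr1 (-1.30 ± 0.19) were lower. Of 18 other splicing regulators 5 were higher and 8 lower (median -0.0100), with Celf1 at 1.92 ± 0.18 and Qk at 1.5 ± 0.23 on the higher side. The RNA helicase gene Ddx5 (-2.72 ± 0.21) and Pspc1 (-1.26 ± 0.39), a paraspeckle protein, were lower. Of 46 core spliceosome genes 12 were higher and 20 lower (median -0.33), with Prpf19 at 2.12 ± 0.19 and the Sm protein gene Snrpd3 at 1.70 ± 0.19 on the higher side. The U2 snRNP genes Snrpa1 (-2.63 ± 0.31) and Sf3a3 (-2.0 ± 0.20) were lower. All of these medians stand beside -0.34 over all genes tested, and the counts of each list beside 22.6% higher and 34% lower.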

How the data were processed

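The deposited files hold whole-number counts per gene for 26 libraries, 1 total mRNA and 1 polysome library for each of 13 tumours, and for 10472 of the 19549 rows a deposited log2 column, which the file headers call TMM-scaled; it differed from the log2 of the counts by a constant per library to within 5.1e-14, and no test used it. The submitters' processing notes name HISAT, HISAT2, limma and mm10, without saying what each did or in which version; which tool counted the reads, with which annotation and whether by strand, is not given in the sources used here. Of the rows, 830 join overlapping genes. Counts were scaled by TMM, filtered with filterByExpr and tested with edgeR 4.0.16 (R 4.3.3) by quasi-likelihood F tests over all genes, p-values adjusted by Benjamini-Hochberg and called below 0.05. The polysome fold came from a fit with the tumour as a block and with RNA source by size and RNA source by batch terms (coded -0.5 and 0.5), so that it averages batches and sizes equally; size and batch were tested within each RNA source. The 2 libraries of a tumour come from the same animal: their deviations correlated at a median of 0.249 (lowest 0.0373), beside -0.0166 for libraries of different tumours. The fits were tested on simulated data. CPM were computed with TMM, and log2 CPM used a prior count of 1. Alternatives were other scalings (RLE, upper quartile), other filters (none at all, or at least 10 CPM on average), DESeq2 1.42.0, voom in limma 3.58.1, no tumour block, log2 weight, no batch term, each batch alone and omission of each tumour, and, chosen after seeing the data, removal of a GC and length trend. Transcript features and sequences came from GENCODE vM21 on GRCm38, the assembly also called mm10, with features for 29 of 29 members and 91.6% of genes tested. Levels by batch are given for the 3 largest called folds in each direction, the 3 largest batch differences and the member most abundant per kilobase of combined exon. The 3 lowest p in each size comparison are named, with levels for Srsf7, Hnrnpa3, Hnrnpul2 and Hnrnpl. Other members are given by folds and counts. The levels of Hnrnpa2b1, Srsf11 and Hnrnpa0 are also given, chosen after their values were seen. Of each other splicing list the 2 largest called folds in each direction are named. Members and gene lists were chosen with earlier results of these data known. No 2 libraries held identical counts.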

Additional observations from a re-analysis of the deposited data

Results flagged for a closer look

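In 9 of 112 groups of libraries, a member's highest or lowest level stood apart from the others by Dixon's criterion; chance marks about 1 in 20 groups. Small replicate 8 had the highest total mRNA level among small tumours for Hnrnpa2b1 (1402 CPM, next 517), Srsf2 (409 CPM, next 83.6) and Hnrnpd (38.3 CPM, next 20.5). Large replicate 3 had the lowest total mRNA level among large tumours for Srsf9 (3.63 CPM, next 19.6) and Srsf4 (10.9 CPM, next 39.0). Large replicate 5 was highest in total mRNA for Hnrnpu (279 CPM, next 76.6), and small replicate 7, the tumour with the lowest macrophage marker share, was lowest for Srsf5 (64.4 CPM, next 108). In polysome mRNA, small replicate 5 was highest for Hnrnpa2b1 (4258 CPM, next 2157) and large replicate 4 for Hnrnpk (188 CPM, next 159).

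The polysome fold differed between the batches, by the interaction term in edgeR, for 15 members. The log2 difference of batch 2 minus batch 1 was -2.79 for Hnrnpl, -2.61 for Hnrnpul2, -2.16 for Hnrnpul1, -1.80 for Srsf11 and -1.18 for Hnrnpu. It was 1.77 for Srsf3, 1.63 for Hnrnpa3, 1.60 for Hnrnpc, 1.56 for Hnrnpa0, 1.52 for Hnrnpdl, 1.49 for Srsf6, 1.48 for Hnrnpk, 1.44 for Hnrnpr, 1.23 for Hnrnpa1 and 1.04 for Hnrnpf.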

How the results depend on the processing

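Removal of the GC and length trend left 7 members lower in polysomes, and batch 2 alone left 9. The trend removal also left 8 batch differences of the fold and 3 batch differences in polysome mRNA. Leaving out each tumour gave 9 to 16 batch differences of the fold and 6 to 14 in polysome mRNA, in both cases fewest without small replicate 6. Over all genes 11.5% and 19.7% were then called. DESeq2 called 5 members for size in polysomes (1.66% of genes). The cause of these changes was not tested.

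With the trend removed, folds turned positive for Hnrnpa1 (0.28), Hnrnpc (0.39), Hnrnpdl (0.097), Hnrnph1 (0.20), Srsf10 (0.15), Srsf3 (0.44), Srsf7 (0.22) and Hnrnpa3 (1.44). Hnrnpa3, which lies at 0, was also positive under RLE (0.070) and upper-quartile scaling (0.038), no filter (0.033), at least 10 CPM (0.023), DESeq2 (0.070), voom (0.013) and batch 2 alone (0.84), and ran from -0.12 to 0.12 with each tumour left out. Srsf11 was at -0.60 in batch 2 alone. Without the tumour pairing (no replicate block) 8 members were higher and 17 lower, 12 batch differences were called, Hnrnpa3 was at 0.068, and Srsf2 was the only polysome call lost. Over all genes that fit called 51.7% for the polysome fold and 13.3% for its batch difference. The number of tumours, 13 in 2 batches, limits the size comparison, and the low levels of Srsf12 allow no statement on it.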
